A study of Homo sapiens with 4 samples.

Results

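Next to one end of chromosome 1 lies a run of 7 pseudogenes that copy a stretch of the mitochondrial chromosome. They are MTND1P23, MTND2P28, MTCO1P12, MTCO2P12, MTATP8P1, MTATP6P1 and MTCO3P12, which are named after the mitochondrial genes MT-ND1, MT-ND2, MT-CO1, MT-CO2, MT-ATP8, MT-ATP6 and MT-CO3. The members were chosen by position and name, as the genes of the deposited table that start in this stretch of chromosome 1 (GRCh38) and carry these symbols. They are 7 of the 62700 genes in the table. All 7 are single-exon genes on the plus strand, in the same order as their parents, and together they run from 629062 to 634922. The table lists 1 further gene that starts in this stretch, the unnamed minus-strand gene ENSG00000278791 (632325 to 632413), which had a count of 0 in all 4 libraries. Exons of ENSG00000230021, also on the minus strand, overlap MTCO1P12 and MTCO2P12.

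The RNA came from HEK293T, an established human embryonic kidney line that the labels describe as a stable clone derivative. All cells carried CMV-V5-MITO-PRADA, a V5-tagged construct directed to the mitochondrial matrix for labelling molecules around it, so there was no group without the construct. Both groups received the uridine analogue s4U at 100 µM for 5 h, followed by 30 min of 0.5 mM alkyne phenol in its presence. The labelled group (2 libraries, titled 4SU+AP+DF) was also given 10 mM D-amino acid for 30 min, which starts the labelling, and the unlabelled group (2 libraries, titled 4SU+AP) was not. The series design text calls the material labelled and enriched, and ribosomal RNA was depleted. The titles number the libraries as biological replicates without naming separate cultures, and p-values therefore reflect only the spread among these 4 libraries.

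Pieces of mitochondrial DNA have entered the nuclear genome many times during evolution and are called nuclear mitochondrial segments. Human mitochondria read their genes with a genetic code that differs from that of the cytosol, so such copies are not known to encode the proteins of their parents. The parents are transcribed inside the matrix as long precursors that are cut into mRNAs, mostly at the tRNAs between genes. MT-ATP8 and MT-ATP6 overlap and stay together on the same mRNA. MT-ND1 and MT-ND2 encode membrane subunits of complex I, MT-CO1, MT-CO2 and MT-CO3 the core of cytochrome c oxidase, and MT-ATP8 and MT-ATP6 membrane subunits of the ATP synthase. A read that fits a nuclear copy and its parent equally well has no single origin, so the letters that set each copy apart from its parent come first.

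The copies were nearly identical to their parents. Over 5056 aligned positions, summed over the 7 pairs, 98.4% were identical, with 77 substitutions and 3 bases of length change. Bases that neighbouring members share are counted in each of them, and 76 of the substitutions lie at distinct places. Of the substitutions, 72 were transitions (93.5%) and 60 fell on the third base of a parent codon (77.9%). Identity ranged from 97.6% for MTATP8P1 to 99.1% for MTND1P23, which covers only the last 36.8% of MT-ND1 and differs from it at 3 positions. MTCO3P12 covers the first 69.8% of MT-CO3, and the other 5 cover their parents whole. MTND2P28 had 17 substitutions, MTCO1P12 20, MTCO2P12 12, MTCO3P12 10, MTATP6P1 10 and MTATP8P1 5. The longest stretches without a difference were 266 bases in MTND2P28, 245 in MTCO1P12, 158 in MTND1P23, 141 in MTATP6P1, 124 in MTCO3P12, 108 in MTCO2P12 and 62 in MTATP8P1. A window of 100 bases placed at every position of the alignment met at least 1 difference in 62.8% of placements for MTND1P23, 72.2% for MTCO1P12, 73.9% for MTND2P28, 88.1% for MTATP6P1, 93.3% for MTCO3P12, 97.6% for MTCO2P12 and 100% for MTATP8P1. A fragment without a difference fits both places, and such multi-mapped fragments are not in the counts. These are differences between reference sequences, and the mitochondrial sequence of the cells used was not examined. Where it carries the letter of the copy, a mitochondrial fragment could be counted for the copy.

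**Figure D1:**
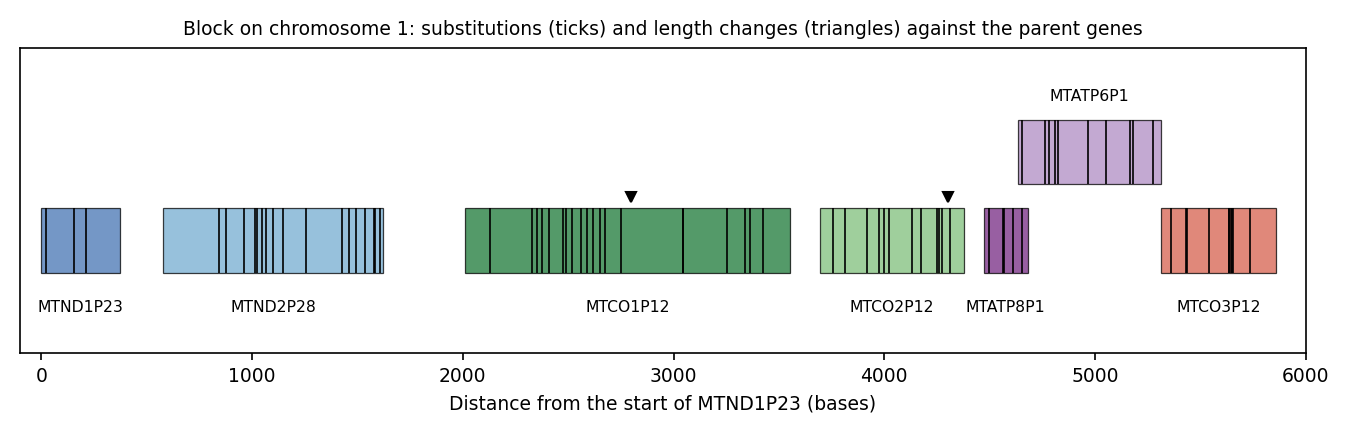
Map of the 7 pseudogenes, with the distance in bases from the start of MTND1P23 on the horizontal axis; boxes are the genes, ticks the substitutions against the parent gene and triangles the length changes in MTCO1P12 and MTCO2P12. MTATP6P1 is drawn higher because it shares 46 bases with MTATP8P1. MTND2P28 and MTCO1P12 hold the longest stretches with no tick.

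Sequences of the ATP synthase copies are shown because the lowest and the highest pseudogene to parent count ratios below belong to them, the shorter pair whole and the first 300 bases of the longer one. They are the GENCODE 29 transcript sequences (GRCh38), 5′ to 3′ on the plus strand, and capitals mark the bases that differ between copy and parent. MT-ATP8 lies at chrM:8366-8572 and MTATP8P1 at chr1:633535-633741. Counted from the first base of the parent, the differences are G27A, C90T, C96T, T138C and G180A.
MT-ATP8: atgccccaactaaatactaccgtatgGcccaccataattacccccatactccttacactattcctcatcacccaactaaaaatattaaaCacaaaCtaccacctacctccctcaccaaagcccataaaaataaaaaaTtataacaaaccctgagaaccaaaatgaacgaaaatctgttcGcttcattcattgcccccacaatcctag
MTATP8P1: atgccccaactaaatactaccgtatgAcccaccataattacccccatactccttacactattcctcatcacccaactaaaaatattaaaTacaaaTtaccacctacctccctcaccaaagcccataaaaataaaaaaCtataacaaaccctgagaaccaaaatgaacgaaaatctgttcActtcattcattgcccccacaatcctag

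The stretches of MT-ATP6 and MTATP6P1 shown are chrM:8527-8826 and chr1:633696-633995, with 5 of the 10 differences. Over the whole gene the differences are G19A, C129T, A151C, A175G, A192G, A334G, C417T, C534A, C549T and C642T. The first of them is the same base as G180A of the MTATP8P1 pair, because both pairs of genes overlap by 46 bases, and it lies in that overlap, where fragments touch both genes and stay unassigned.
MT-ATP6: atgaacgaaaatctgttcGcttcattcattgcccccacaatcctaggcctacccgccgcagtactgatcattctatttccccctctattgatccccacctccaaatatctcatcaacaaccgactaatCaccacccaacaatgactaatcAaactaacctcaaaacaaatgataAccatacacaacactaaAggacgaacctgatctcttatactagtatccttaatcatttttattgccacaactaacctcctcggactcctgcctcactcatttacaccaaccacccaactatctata
MTATP6P1: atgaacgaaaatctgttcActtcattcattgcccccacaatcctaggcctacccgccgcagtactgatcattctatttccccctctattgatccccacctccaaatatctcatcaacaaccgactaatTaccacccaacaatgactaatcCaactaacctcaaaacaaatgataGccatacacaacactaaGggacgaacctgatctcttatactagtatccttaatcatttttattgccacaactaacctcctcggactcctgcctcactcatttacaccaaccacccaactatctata

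MTCO1P12 and MTCO2P12 are shown only around their length changes, the places where these copies lose the reading frame of the parent. MTCO1P12 has 1 extra base, aligned after base 786 of MT-CO1, and MTCO2P12 lacks 2 bases, aligned to bases 610 and 611 of MT-CO2. Both changes lie in short repeats, so their exact place is arbitrary. The stretches are chrM:6660-6719 and chr1:631830-631890 for the first pair and chrM:8165-8226 and chr1:633336-633395 for the second.
MT-CO1: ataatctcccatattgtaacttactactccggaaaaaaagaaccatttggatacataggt
MTCO1P12: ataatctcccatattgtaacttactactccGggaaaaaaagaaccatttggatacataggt
MT-CO2: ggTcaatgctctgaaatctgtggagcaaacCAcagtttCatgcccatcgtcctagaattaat
MTCO2P12: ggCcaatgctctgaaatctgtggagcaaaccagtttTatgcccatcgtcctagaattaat

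The libraries held 5771795 to 12287451 assigned fragments, and unlabelled replicate 2 was the shallowest. All 6 HEK293T markers examined were detected at a mean of at least 1 count per 1000000 assigned fragments (CPM, scaled by TMM), with a summed level of 229 to 278 CPM in unlabelled and 244 to 249 CPM in labelled libraries. Blood cell markers summed to 1.05 to 1.33 CPM and 1.24 to 1.39 CPM, with CD3E and HBB at 0, and fibroblast and endothelium markers to 11.7 to 19.4 CPM and 19.9 to 20.5 CPM, with COL1A2 and DCN at 0. A mean of at least 1 CPM was reached by 1 of the 4 blood cell markers and by 1 of the 5 fibroblast and endothelium markers. At an edgeR adjusted p under 0.05, 51 of 18973 genes tested were higher with labelling and 3 lower. Scaling by library size alone gave 69 higher and 2675 lower, and shifted the median of the log2 fold changes over all genes from -0.01 to -0.37. These counts depended on single libraries, with 2440 higher and 1545 lower without unlabelled replicate 1, 419 and 518 without unlabelled replicate 2, 76 and 17 without labelled replicate 1, and 49 and 9 without labelled replicate 2. Multi-mapped alignment records, which hold the fragments shared between copies and parents among many others, numbered 2.77 per assigned fragment in unlabelled replicate 1 and 1.24 in unlabelled replicate 2, against 0.646 and 1.30 in the labelled libraries. Their part in the results below was not tested.

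The block held more of the labelled than of the unlabelled libraries. It took 4202 fragments, or 0.0514% of those assigned (95% Wilson interval 0.0499 to 0.0530%), in unlabelled replicate 1 and 4362, or 0.0756% (0.0734 to 0.0778%), in unlabelled replicate 2. It took 16743 fragments, or 0.178% (0.176 to 0.181%), in labelled replicate 1 and 22203, or 0.181% (0.178 to 0.183%), in labelled replicate 2. Both labelled libraries lay above both unlabelled ones. The mean share was 0.0635% ± 0.0171 (SD, n = 2) without labelling and 0.180% ± 0.00156 (SD, n = 2) with it, a 2.83-fold difference that was many times the spread within the groups. A two-sided exact permutation test over the libraries gave p = 0.33, which is as low as 2 against 2 can go. These are shares of what was sequenced, so more RNA of the block and less of other RNA cannot be told apart, nor can more cells and more RNA per cell.

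All 7 members passed the filter on low counts, and 6 of the 7 rose at an edgeR adjusted p under 0.05. That filter can be passed through the libraries of 1 group alone. MTATP8P1, with counts of 7 and 13 in unlabelled and 49 and 55 in labelled libraries, may have passed through the labelled ones. It is part of the counts and the median of the 7 given here, and how far the filter shaped them was not tested. Over all genes tested, 0.269% were called higher and 0.0158% lower, and 0 of the 7 members were lower. The median log2 fold change of the 7 was 2.17 with a range of 1.66 to 2.37, against -0.01 over all genes. The groups did not overlap for any of the 7 members with labelled libraries higher, while 22.2% of all genes tested showed that. DESeq2 also called 6 of the 7, and 0.402% of the 15662 genes to which it gave an adjusted p, as higher. The exception in both tests was MTATP8P1, the member with the fewest fragments. All 7 rose with library size alone, where 0.364% of all genes were higher, with no filter on low counts (0.461%) and with the replicate number as a block (0.738%). All 7 also rose without unlabelled replicate 1, where 11.6% of all genes were higher, and without unlabelled replicate 2 (2.06%). With 1 library left out, 1 group is a single library that the test assumes to vary like the other group, so such calls say nothing about stability.

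**Figure D2:**
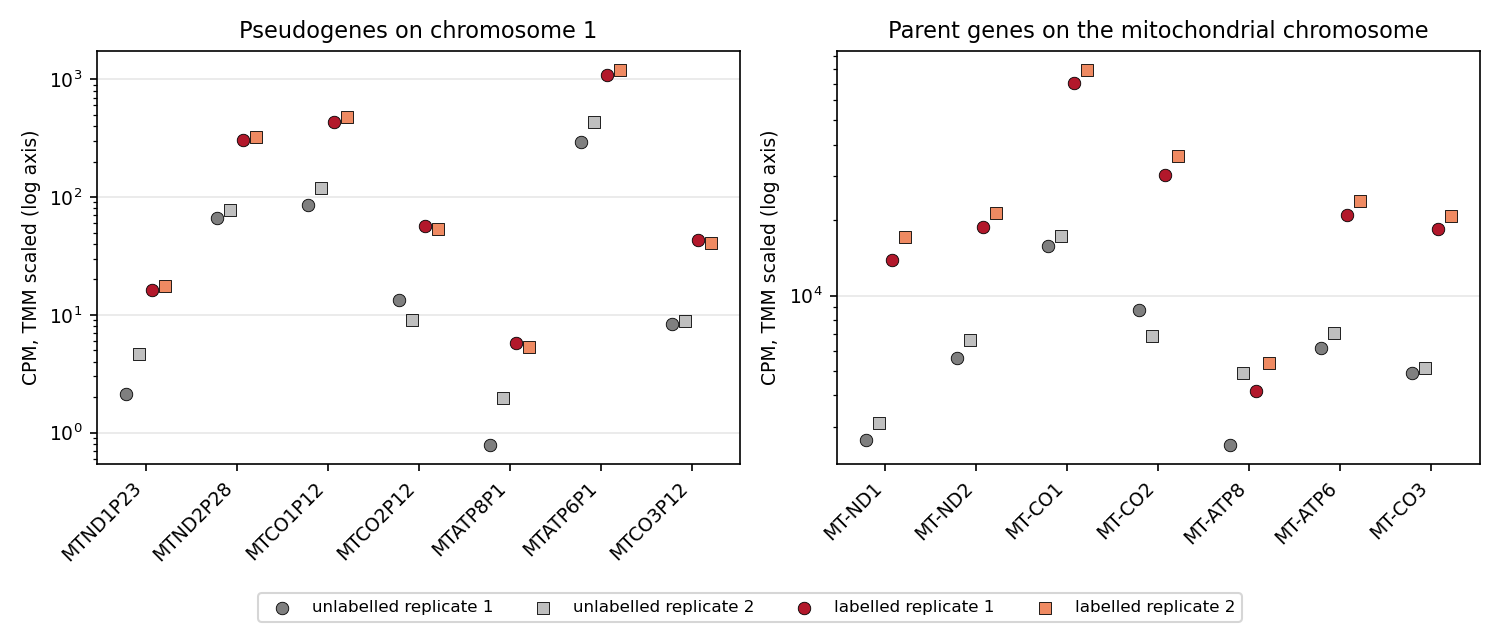
Levels in CPM scaled by TMM on a log axis, for the 7 pseudogenes (left) and the 7 parents (right), with 1 point per library. For each pseudogene both labelled libraries lie above both unlabelled ones, and among the parents the groups overlap for MT-ATP8.

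Among the copies of complex I genes, MTND1P23 (ENSG00000225972, 629062 to 629433, 372 bases) had few fragments. Its counts were 19 and 31 in unlabelled and 140 and 181 in labelled replicates 1 and 2, or 2.12, 4.68, 16.3 and 17.4 CPM. The unlabelled replicates differed from each other by more than the labelled ones did. It rose by a log2 fold change of 2.37 ± 0.29 (SE; edgeR adjusted p 0.00281), which was 2.99 without unlabelled replicate 2. MTND2P28 (ENSG00000225630, 629640 to 630683, 1044 bases) had 66.3 and 77.7 CPM without labelling and 306 and 326 CPM with labelling. The replicates lay close together in both groups, and it rose by 2.14 ± 0.15 (adjusted p 3.11e-05).

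Among the copies of cytochrome c oxidase genes, MTCO1P12 (ENSG00000237973, 631074 to 632616, 1543 bases), the longest member, held the most fragments, with 85.1 and 119 CPM without labelling and 432 and 483 CPM with labelling. Its rise was 2.17 ± 0.18 as a log2 fold change (edgeR adjusted p 1.09e-04). Of its bases, 74 are also exon of ENSG00000230021 and 89 of ENSG00000278791, both on the minus strand, and fragments that touch these stay unassigned because strand was not used. MTCO2P12 (ENSG00000229344, 632757 to 633438, 682 bases) had 13.4 and 9.05 CPM without labelling and 56.7 and 53.5 CPM with labelling, and 86 of its bases are also exon of ENSG00000230021. It rose by 2.27 ± 0.17 (adjusted p 6.20e-05). MTCO3P12 (ENSG00000198744, 634376 to 634922, 547 bases) had 8.35 and 8.90 CPM without labelling and 42.8 and 40.5 CPM with labelling. Its replicates were the closest to each other, relative to their level, of the 7 in the unlabelled group, and it rose by 2.27 ± 0.15 (adjusted p 3.11e-05).

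The copies of the ATP synthase genes were the extremes of the block. MTATP6P1 (ENSG00000248527, 633696 to 634376, 681 bases) had 292 and 437 CPM without labelling and 1093 and 1210 CPM with labelling, more than any other member in each library. It alone held 62.4% and 66.4% of the block's fragments without labelling and 56.0% and 56.7% with labelling. Its log2 fold change of 1.66 ± 0.21 (edgeR adjusted p 0.00420) was the lowest of the 7. MTATP8P1 (ENSG00000240409, 633535 to 633741, 207 bases) had counts of 7 and 13 in unlabelled and 49 and 55 in labelled libraries, or 0.780, 1.96, 5.71 and 5.29 CPM, where 3 counts correspond to 0.244 to 0.520 CPM of assigned fragments. The groups did not overlap, but its log2 fold change of 2.07 ± 0.41 did not pass (adjusted p 0.0879, and 0.0534 with DESeq2). Over alternative settings its adjusted p ran from 8.06e-07 without unlabelled replicate 2, where the log2 fold change was 2.80, to 0.133 with thinned libraries.

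Per length, the members differed from each other by far more than the groups did. MTATP6P1 stood at 429 to 1777 CPM per kilobase over the 4 libraries. MTND2P28 followed with 63.5 to 312 and MTCO1P12 with 55.1 to 313, and their ranges overlapped almost wholly. MTCO3P12 (15.3 to 78.2), MTCO2P12 (13.3 to 83.1), MTND1P23 (5.69 to 46.8) and MTATP8P1 (3.77 to 27.6) formed the low end. The order followed the number of differences per 100 aligned positions only in part. MTATP6P1 had 1.47, between MTCO1P12 with 1.36 and MTND2P28 with 1.63. MTCO3P12, MTCO2P12 and MTATP8P1 at the low end had more, with 1.83, 2.05 and 2.42. MTND1P23, also at the low end, had the fewest, 0.85.

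The next question was whether each copy moved with its parent, which was asked with the number of pseudogene fragments per 1000 parent fragments in the same library, a ratio that needs no scaling. For the sum of 7 over the sum of 7 parents it was 10.1 (95% Wilson interval 9.76 to 10.4) and 12.9 (12.5 to 13.3) in unlabelled and 11.05 (10.9 to 11.2) and 10.5 (10.3 to 10.6) in labelled replicates 1 and 2. Both labelled values lay between the unlabelled ones. The difference in the log2 ratio was -0.08 ± 0.18 (SE), with an exact permutation p = 1, two-sided, and it was 0.10 without unlabelled replicate 2. The parents themselves rose from 5.49% ± 0.536 (SD, n = 2) to 16.7% ± 0.794 (SD, n = 2) of assigned fragments, 3.04-fold.

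**Figure D3:**
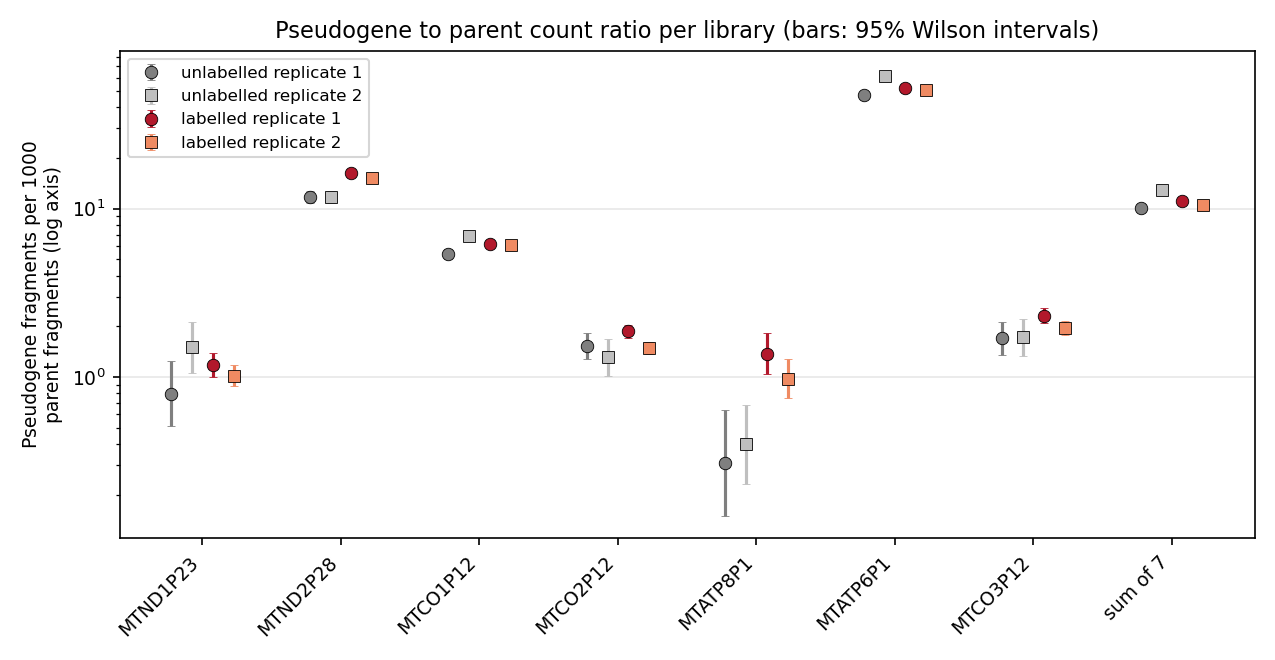
Pseudogene fragments per 1000 parent fragments on a log axis, for each pair and for the sum of 7, with 1 point per library and 95% Wilson intervals that cover counting error only. MTATP6P1 lies at 47.2 to 61.8 and MTATP8P1 at 0.308 to 1.37.

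The ratio differed between the pairs by more than 100 times in unlabelled replicate 1. In labelled replicate 1 it ran from 1.18 to 51.9 and in labelled replicate 2 from 0.980 to 50.7. MTND1P23 and MTCO3P12 cover only part of their parents, so their ratios set a part against a whole gene. Per base their ratios in unlabelled replicate 1 were 2.05 and 2.44 per 1000. MTATP6P1 had 47.2 and 61.8 fragments per 1000 of MT-ATP6 in unlabelled and 51.9 and 50.7 in labelled libraries. Unlabelled replicate 2 had the highest value, with an interval (59.5 to 64.1) clear of those of the other 3 libraries, and the groups overlapped. For MTCO1P12 the values were 5.39 and 6.86 against 6.15 and 6.06 per 1000 of MT-CO1, also with both labelled libraries between the unlabelled ones. For MTND1P23 they were 0.796 and 1.503 against 1.18 and 1.02 per 1000 of MT-ND1. For MTCO2P12 they were 1.52 and 1.31 against 1.88 and 1.48 per 1000 of MT-CO2. The groups overlapped in these 4 pairs, and the log2 differences lay between -0.07 and 0.23 with exact permutation p-values of 0.667 to 1.

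In the remaining pairs both labelled libraries lay above both unlabelled ones. MTND2P28 had 11.7 and 11.7 per 1000 of MT-ND2 in unlabelled and 16.4 and 15.3 in labelled libraries, a log2 difference of 0.43 ± 0.05 (SE). MTCO3P12 had 1.70 and 1.73 per 1000 of MT-CO3 against 2.31 and 1.95, a log2 difference of 0.30 ± 0.12, and the Wilson intervals of labelled replicate 2 (1.77 to 2.14) and unlabelled replicate 2 (1.34 to 2.23) overlapped. MTATP8P1 had 0.308 (0.149 to 0.636) and 0.398 (0.233 to 0.682) per 1000 of MT-ATP8 against 1.37 (1.04 to 1.82) and 0.980 (0.753 to 1.28). That is a log2 difference of 1.66 ± 0.29, and the counting intervals of the groups did not overlap. Each of these 3 differences had an exact permutation p = 0.33, two-sided, the smallest possible, and 0.778 after Benjamini-Hochberg adjustment over the 7 pairs, so none passed.

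**Figure D4:**
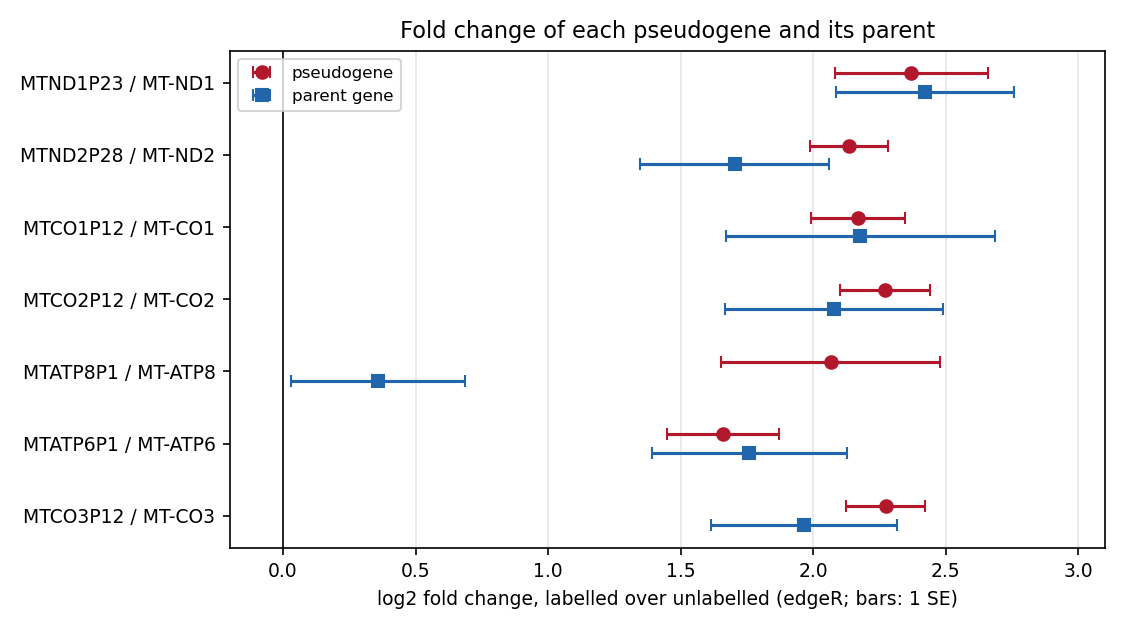
Log2 fold change of each pseudogene (circles) and its parent (squares), labelled over unlabelled, from edgeR, with bars of 1 SE. The bars of copy and parent overlap in 6 of the 7 pairs, and MT-ATP8 stands at 0.36 below MTATP8P1 at 2.07.

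In the pair of MTATP8P1 the parent had the smallest log2 fold change of the 7 parents. MT-ATP6, counted on the same mRNA, had 1.76 ± 0.37 (SE), and the cause of this gap was not tested. MT-ATP8 (chromosome M, 8366 to 8572) had 2529 and 4923 CPM without labelling and 4157 and 5399 CPM with labelling, so its groups overlapped. Its log2 fold change was 0.36 ± 0.33 (edgeR adjusted p 0.697), with -0.01 under library size alone. It was -0.01 without unlabelled replicate 1 and 0.92 without unlabelled replicate 2, where it passed (adjusted p 4.28e-04). In the unlabelled libraries MT-ATP8 made up 5.43% and 9.63% of the fragments of the 7 parents and in the labelled libraries 2.35% and 2.64%. MTATP8P1 made up 0.167% and 0.298% of the block's fragments and then 0.293% and 0.248%, with overlapping groups. When both overlapping ATP synthase genes were summed on each side, the ratio was 33.6 and 36.6 per 1000 in unlabelled and 43.6 and 41.5 in labelled libraries, a log2 difference of 0.28 ± 0.07 (exact permutation p = 0.33). Without MTATP6P1 and MT-ATP6, the other 6 members had 4.36 and 5.02 per 1000 against 5.52 and 5.13, a log2 difference of 0.19 ± 0.11 (exact permutation p = 0.33).

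In edgeR 2 of the 7 parents rose, MT-ND1 at 2.42 ± 0.34 (adjusted p 0.00725) and MT-CO3 at 1.96 ± 0.35 (adjusted p 0.0414). Besides MT-ATP8, the other 4 had log2 fold changes of 1.70 to 2.18 with adjusted p-values of 0.0845 to 0.1501. The edgeR standard errors of the parents were 0.33 to 0.51 and those of the copies 0.15 to 0.41. With DESeq2 the parents had 0.14 to 0.43 and the copies 0.16 to 0.57, so this order depended on the method. Over all genes tested in edgeR, 0.269% were called higher. The number of parents called depended on the setting. It stayed at 2 with DESeq2 size factors or with scaling on nuclear genes (0.274% of all genes higher in each). With the replicate block it was 3 (0.738%). It was 6 with DESeq2 (0.402%), with library size alone (0.364%), with no filter (0.461%) or with thinned libraries (0.398%). With 1 library left out, 1 group is a single library, so the number of parents called then says nothing about stability. The difference between copy and parent itself is the ratio above.

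The nearest comparison is with the other nuclear copies of mitochondrial genes. The table lists 397 of them, of which 141 had at least 1 fragment and 36 passed the filter on low counts. Together they took 0.0148% and 0.0211% of assigned fragments in unlabelled and 0.0349% and 0.0332% in labelled libraries. The block thus held 77.6% and 78.2% of all fragments on nuclear copies in unlabelled and 83.7% and 84.5% in labelled libraries, groups that did not overlap (exact permutation p = 0.33, two-sided). Of the 36 other copies tested, 8 rose and 0 fell with edgeR at an adjusted p under 0.05, and DESeq2 called 8 higher. An unadjusted edgeR p under 0.05, in either direction, was found for 21 of them and for 2191 of all 18973 genes tested. The median log2 fold change of the 36 was 1.08 with a range of -1.39 to 2.86.

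**Figure D5:**
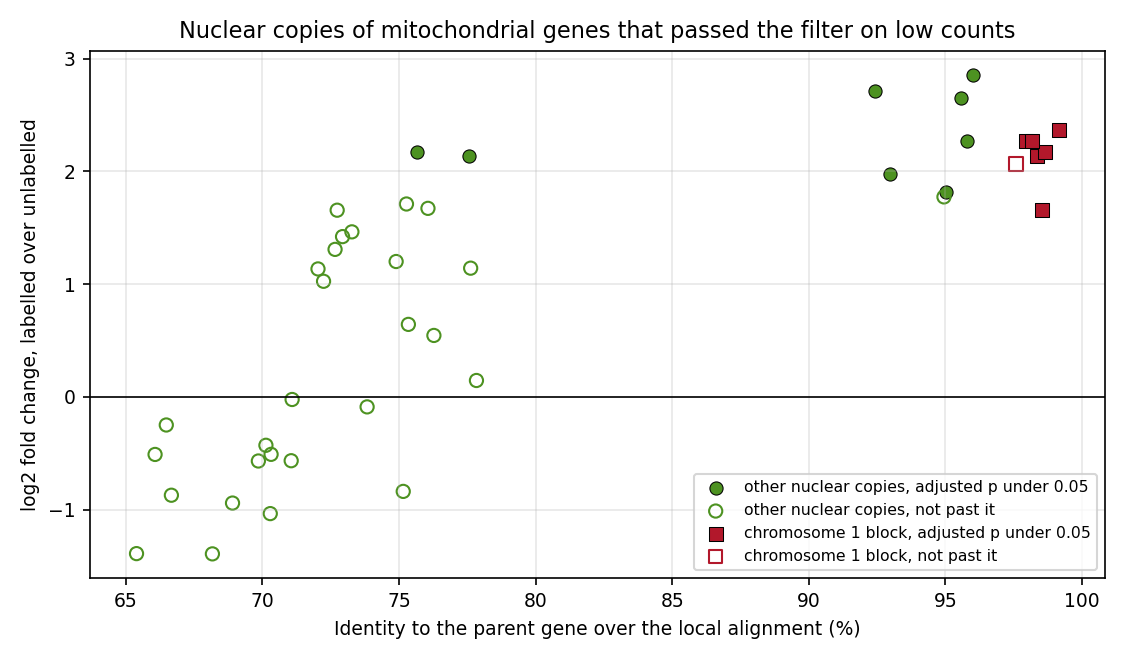
Log2 fold change, labelled over unlabelled, against the identity of each nuclear copy to its parent in percent, for the 7 members (squares) and 36 other copies (circles); filled points had an edgeR adjusted p under 0.05. No copy tested lies between 77.8% and 92.4% identity.

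Among the 36 other copies tested, identity to the parent fell into 2 ranges, while 74 of the 361 copies not tested lay between them. This split was made after the values were seen and is a description. In the set of 7 copies at 92.4% to 96.0% identity, 6 rose and the median log2 fold change was 2.27. In the set of 29 copies at 65.4% to 77.8% identity, 2 rose and the median was 0.15. The filter on low counts can be passed through the libraries of 1 group alone. How far this shaped the counts and medians of the tested copies was not tested. The most abundant of the 36 was MTND4P12 on chromosome 5, copy of the complex I gene MT-ND4 (95.8% identical), with 21.8 and 28.97 CPM without labelling and 126 and 117 CPM with labelling, and it rose by 2.27 ± 0.15 (adjusted p 3.11e-05). Beside it on chromosome 5, MTND5P11 rose by 1.97 ± 0.19 and MTND6P4 by 1.81 ± 0.14. MTCO2P2 on chromosome 18, another of the copies of MT-CO2 (95.6% identical over 203 aligned positions), rose by 2.65 ± 0.25. The fifth most abundant was MTND5P26 on the X chromosome, 70.3% identical to MT-ND5, with 7.02 and 11.3 CPM without labelling and 5.01 and 3.85 CPM with labelling (log2 fold change -1.03 ± 0.30, adjusted p 0.266).

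The nuclear genes around the block were looked at in the same libraries. Of 14 such genes that overlap the interval from 500000 to 800000 on chromosome 1, 9 had at least 1 fragment and 4 passed the filter on low counts. Of these 4, 0 rose and 0 fell with edgeR at an adjusted p under 0.05, and DESeq2 called 0 higher. An unadjusted edgeR p under 0.05 was found for 2 of them, LINC01409 and CICP3, both lower with labelling. Over all 18973 genes tested, 2191 had such a p in either direction. ENSG00000291215, a minus-strand gene, had 15.8 and 18.4 CPM without labelling and 16.4 and 17.2 CPM with labelling, a log2 fold change of -0.02 ± 0.16. LINC01409, a long intergenic RNA gene, had 14.5 and 19.5 CPM against 13.3 and 11.3 CPM (-0.46 ± 0.20, adjusted p 0.412). ENSG00000290385 was at 0.36 ± 0.39 (adjusted p 0.748) and CICP3 at -1.45 ± 0.51 (adjusted p 0.330), both at means under 3 CPM.

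The profile of the summed block over the 4 libraries was then compared with all genes of at least 5 CPM on average. Likeness was the Euclidean distance between log2 CPM values centred on their mean, where a smaller distance means a more similar profile. The 5 nearest were MT-TP, the mitochondrial tRNA for proline, at 0.12, MTND5P11 at 0.17, MT-ND5 at 0.20, MT-ATP6 at 0.25 and MT-TS1, a mitochondrial tRNA for serine, at 0.26. All 5 are genes of the mitochondrial chromosome or a nuclear copy of one. A profile of 4 values in 2 groups mostly reflects the step between the groups, so this partly restates the fold changes. The log2 fold changes of the 5 were 1.76 to 2.13. The genes called higher by edgeR were 23 of the mitochondrial chromosome, 8 other copies, 6 members and 14 other nuclear genes. Among the other parents, MT-ND2 ranked at place 6, MT-CO3 at 7, MT-CO1 at 13, MT-ND1 at 23, MT-CO2 at 25 and MT-ATP8 at 390. Because MTATP6P1 holds most of the block's fragments, it weighs most in this profile, at a distance of 0.20 from the sum against 0.30 to 0.86 for the other members.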

How the data were processed

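Sequencing libraries of HEK293T cells, 2 labelled and 2 unlabelled, were grouped by their titles. Per the file headers the deposited counts are whole fragments per gene made with featureCounts 1.6.4 on GENCODE 44, from read pairs with both ends mapped, with no strand or multi-mapping option. STAR 2.7.9a, the GRCh38 build and DESeq2 1.42.0 are named in the submitters' processing notes. Read trimming and duplicate removal are not given in the sources used here. Gene symbols were paired with all 62700 identifiers.

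Counts were tested with edgeR 4.0.16 (quasi-likelihood, filterByExpr, TMM, R 4.3.3), adjusted by Benjamini-Hochberg over 18973 genes. Each standard error (SE) is the size of the log2 fold change over the root of its F statistic. The test was also run on simulated counts that gave all genes the same dispersion, unlike these libraries, and no statement here rests on that run. Ratios used a pseudocount of 0.5 only on the log2 scale, and 6 arrangements in the exact permutation test (Python 3.11.15, NumPy 2.4.6, pandas 2.3.3, SciPy 1.17.1). No molecular identifiers are named in the sources used here, and reads without them are not independent molecules, so Wilson intervals hold for counting error alone. Copies and parents, whose coordinates are the same in both releases, were aligned locally with Biopython 1.88 (match 2, mismatch -3, gap -6 and -2) from GENCODE 29 transcripts. Plots used matplotlib 3.10.9.

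The members and lists were chosen with earlier results of these data known. The text names all members and parents, the 5 most abundant tested other copies, up to 5 tested neighbours, and the 5 genes nearest to the summed block with a mean of at least 5 CPM. Alternatives were DESeq2, other scalings, no filter, thinning, a replicate block, left-out libraries, other pseudocounts and summed overlapping genes.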

Additional observations from a re-analysis of the deposited data

How the results depend on the processing

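Each of the 6 called members kept its direction and its call under the 7 alternatives of the gene test that use all 4 libraries. With 1 library left out, the lone library of its group is assumed to vary like the other group, so the calls made then are no check of stability, and the log2 fold changes of these 6 ran from 1.43 to 2.99. MTATP8P1 passed with library size alone (log2 fold change 1.71, adjusted p 0.0276), with no filter on low counts (2.10), with the replicate block (2.07) and without either unlabelled library, with 1.51 to 2.80 over the left-out libraries. Higher genes numbered 183 with no filter and 140 with the block, and 49 to 2440 with 1 library left out. Lower genes numbered 5 with DESeq2 size factors or with scaling on nuclear genes, 2675 with library size alone, 119 with no filter, 16 with thinning, 96 with the block, 17 with DESeq2, and 9 to 1545 with 1 library left out. The log2 fold change of MT-ATP8 was -0.015 with library size alone and -0.012 (without unlabelled replicate 1) to 0.92 (without unlabelled replicate 2, where it passed) with 1 library left out. The labelled minus unlabelled difference in the share of the block was 0.183 percentage points of nuclear fragments, against 0.116 of all fragments. The log2 ratio difference to the parent turned its sign for pairs near 0, and the cause was not tested. For MTND1P23 it was 0.0039 with no pseudocount and -0.47 to 0.43 with 1 library left out, for MTCO1P12 -0.17 to 0.18, for MTATP6P1 -0.27 to 0.12 and 0.28 with the ATP synthase genes summed, and for the whole block -0.26 to 0.10 and 0.19 without MTATP6P1. Whether replicate numbers pair the libraries is not known, since the labels name no shared batch. The correlation of their differences was -0.07 over 18973 genes. With 1 difference per group it cannot decide this. With the replicate block the difference in the share of the block is 0.116 percentage points by construction, since the mean of the within-number differences equals the difference of the group means here. Depth limits MTATP8P1 and MTND1P23, which had 7 to 31 fragments in the unlabelled libraries.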
